A study of Mus musculus with 8 samples.

Results

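Cartilage matrix proteins other than collagens were examined in skeletal stem cells (SSCs) and in the bone, cartilage and stromal progenitors (BCSPs) downstream of them, both freshly purified from mouse femoral fracture calluses. The 10 genes were Acan, Hapln1, Comp, Matn1, Matn3, Matn4, Cnmd, Snorc, Ucma and Chad. They were taken by gene symbol, and 15 of the 45101 probe sets on the array carried one of these symbols and no other. Hapln1 had 4 probe sets, Matn3 and Ucma had 2 each, and the other 7 genes had 1.

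All 8 arrays came from male C57/Bl6 mice of 10 to 12 weeks with a bicortical femoral fracture held by an intramedullary pin. The labels give day 7 after injury for the callus, while the text of the study gives a later day. Both populations were CD51+ cells that lacked CD45, Ter119, Tie2, Thy1 and 6C3. SSCs (4 arrays) were in addition CD105- and CD200+, and BCSPs (4 arrays) were CD105+, with 10000 cells of each in every one of 4 experiments. The arrays are called SSC1 to SSC4 and BCSP1 to BCSP4 after the experiment. No unfractured bone was part of the comparison, and each population is whatever passed its surface gate. Each gene outside the set is given by its highest probe set, the one with the highest mean over the 8 arrays, unless another is named. On the score described below, where 0 is the threshold of activity, the genes of CD51 (Itgav) and CD200 (Cd200) were above 0 on all 8 arrays, for Itgav by 1 of its 5 probe sets. Those of CD45, Tie2, Thy1 and 6C3 were below 0 on all of them. Eng, the gene of CD105, lay between -64.4 and -29.4 in SSCs and between -1.02 and 50.1 in BCSPs, and by its other probe set below 0 on every array.

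Cartilage resists compression because aggrecan, a very large proteoglycan, is held on hyaluronan by a link protein and draws in water. Smaller adaptor proteins, among them Comp and the matrilins, tie this gel to the collagen fibrils, and other secreted or membrane proteins of chondrocytes act on vessels, mineral and cell adhesion. In a healing fracture, cartilage forms in the callus and is later replaced by bone. The value deposited for each probe set is an activity score. It places the sample within the range that the same probe set covers in a large collection of public mouse arrays, from -100 (inactive) to +100 (active), with 0 as the threshold. The score therefore says how high a gene stands in its own range. It does not rank the amounts of mRNA of different genes, and a difference in points cannot be read as a fold change.

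The promoters of 8 of the 10 genes were matched in RefSeq (GRCm38.p6). Those of Acan, Chad, Matn1 and Matn4 are shown over the 250 bases before the annotated start, because Acan is the main proteoglycan of the set, Chad held the only motif found, and Matn1 and Matn4 were the members whose scores varied most. The windows are chr7:79052976-79053225 on the plus strand for Acan, chr11:94564797-94565046 on the plus strand for Chad, chr4:130944135-130944384 on the plus strand for Matn1 and chr2:164405161-164405410 on the minus strand for the outer start of Matn4. They read 5′ to 3′, and capitals mark the motif TATAAA.
Acan: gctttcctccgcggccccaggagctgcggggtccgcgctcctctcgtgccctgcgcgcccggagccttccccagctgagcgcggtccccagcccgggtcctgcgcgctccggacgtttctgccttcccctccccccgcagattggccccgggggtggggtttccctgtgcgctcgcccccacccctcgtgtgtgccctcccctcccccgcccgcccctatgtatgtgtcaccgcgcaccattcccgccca
Chad: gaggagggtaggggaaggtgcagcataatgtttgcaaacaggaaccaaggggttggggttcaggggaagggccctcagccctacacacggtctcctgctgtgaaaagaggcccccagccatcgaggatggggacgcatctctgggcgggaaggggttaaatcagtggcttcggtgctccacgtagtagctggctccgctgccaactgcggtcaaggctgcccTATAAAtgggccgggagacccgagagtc
Matn1: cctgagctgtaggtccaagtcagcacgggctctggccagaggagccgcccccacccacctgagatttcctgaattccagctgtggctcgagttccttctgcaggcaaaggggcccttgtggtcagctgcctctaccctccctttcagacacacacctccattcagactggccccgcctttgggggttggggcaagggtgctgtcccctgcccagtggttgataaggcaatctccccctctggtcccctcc
Matn4: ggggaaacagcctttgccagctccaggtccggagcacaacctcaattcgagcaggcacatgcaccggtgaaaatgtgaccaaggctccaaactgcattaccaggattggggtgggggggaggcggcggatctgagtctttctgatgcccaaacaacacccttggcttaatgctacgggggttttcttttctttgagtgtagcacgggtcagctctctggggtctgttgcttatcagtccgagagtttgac
The letters TATAAA, searched on both strands, occurred in 1 of 9 windows of the members, that of Chad, and in 12.4% of 32851 windows of the same length over all genes. The motif of Chad began 28 bases before the start. The letters AACAAT, the core that Sox proteins bind, occurred on either strand in 0 of 9 windows and in 9.42% of all windows. The Acan window was 74.4% G and C, against a median of 52.4% over all windows.

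Every member was active in both populations. All 15 probe sets scored above 0 on all 8 arrays, which 16.1% of 45037 probe sets that are not controls did, and so did all 10 genes by their highest probe set, against 25.0% of 18193 named genes. At a level of 95 points, chosen after the values were seen, 12 of the 15 probe sets stood at or above it on all 8 arrays, against 0.817% of all probe sets. These 12 belonged to Acan, Hapln1, Comp, Matn3, Cnmd, Ucma and Chad. At 90 points there were also 12 of 15, against 1.48%, and at 99 points 7 of 15, against 0.202%. The median over the 15 probe sets was 99.6 in both populations, while the median over all probe sets was -31.0 in SSCs and -30.4 in BCSPs. In sorted populations measured in bulk, fewer cells with a transcript and less of it per cell cannot be told apart.

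**Figure D1:**
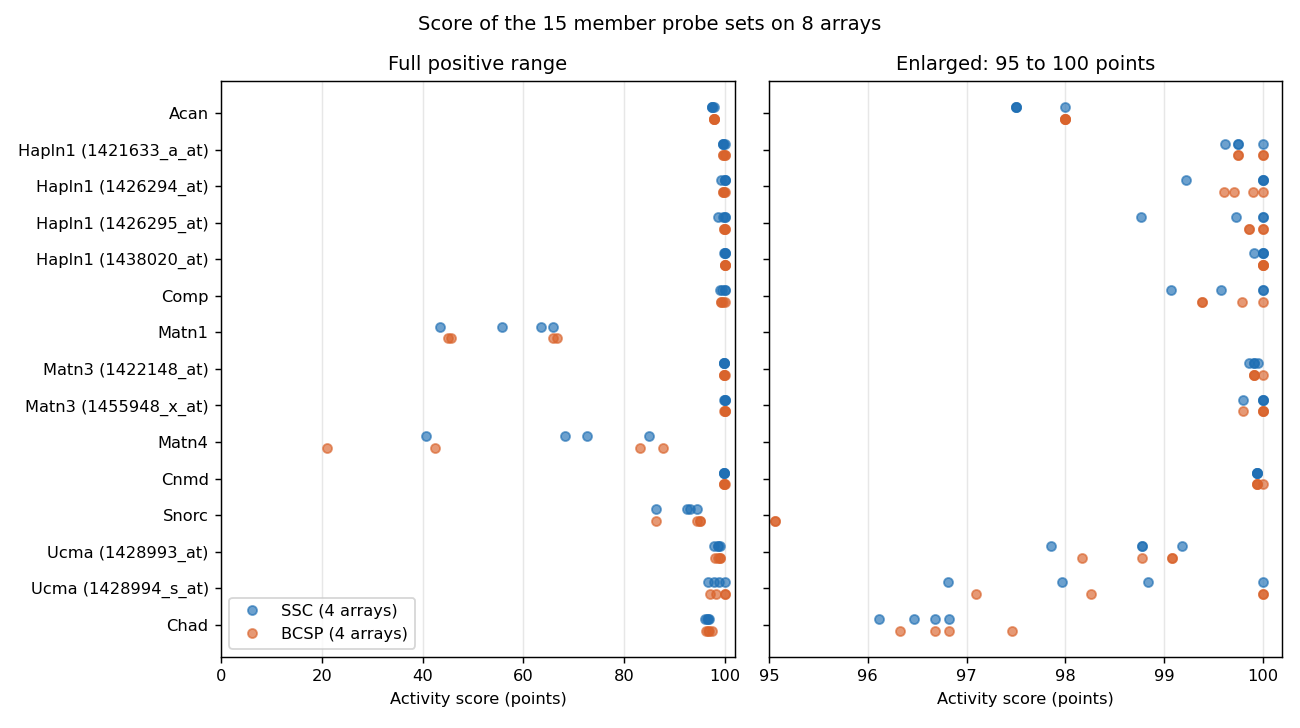
Activity score (points) of the 15 probe sets of the 10 cartilage matrix genes, with each point an array (4 SSC, 4 BCSP); the left panel shows 0 to 100 points and the right panel enlarges 95 to 100. Matn1, Matn4 and Snorc are the 3 genes that leave the top 5 points of the scale on some or all arrays.

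Acan, which encodes aggrecan, took only 2 values. It scored 98.0, 97.5, 97.5 and 97.5 on SSC1 to SSC4 and 98.0 on all 4 BCSP arrays. The populations overlapped only through SSC1. Hapln1, the link protein that fastens aggrecan to hyaluronan, stood at the ceiling by each of its 4 probe sets. By the highest of them it scored 100, 99.91, 100 and 100 in SSCs and 100 on all 4 BCSP arrays. Its other 3 probe sets ranged from 98.77 to 100. In 3 of the 4 the lowest value over all arrays, and in the other the only value below 100, was that of SSC2.

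Among the adaptor proteins, Comp and Matn3 were as high. Comp, a thrombospondin whose human gene is mutated in pseudoachondroplasia, scored 100, 99.58, 99.07 and 100 in SSCs and 100, 99.79, 99.38 and 99.38 in BCSPs. Matn3, a matrilin whose human gene is mutated in multiple epiphyseal dysplasia, lay between 99.80 and 100 on all 8 arrays by both probe sets. By the one with the higher mean its populations had the same mean, 99.95 ± 0.10 (SD, n = 4) in each.

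Matn1 and Matn4 stood apart from the rest of the set. Matn1, the first matrilin found in cartilage, scored 65.89, 55.81, 43.41 and 63.57 in SSCs and 66.67, 65.89, 44.96 and 45.74 in BCSPs. Matn4, a matrilin of cartilage and of many other tissues, scored 84.93, 68.33, 40.60 and 72.70 in SSCs and 83.22, 87.78, 42.37 and 21.09 in BCSPs. In both genes the populations overlapped over most of their range, and the lowest 3 arrays were SSC3, BCSP3 and BCSP4. The spread of Matn4, 66.7 points, was wider than that of most probe sets at its level. Of 4567 probe sets with a mean from 40 to 80 points, 24.5% had a wider range than Matn4 and 88.7% a wider range than Matn1, and the median range was 46.4 points.

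The remaining members are small proteins of chondrocytes. Cnmd, chondromodulin, which keeps vessels out of cartilage, had the narrowest range of the set. It scored 99.94 on 7 arrays and 100 on BCSP2. Snorc, a small membrane proteoglycan of chondrocytes, scored 94.44, 93.21, 86.42 and 92.59 in SSCs and 94.44, 95.06, 86.42 and 95.06 in BCSPs. Both of its values of 86.42 came from experiment 3, and the other 6 arrays lay within 92.59 to 95.06. Ucma, a secreted protein rich in gamma-carboxyglutamate, lay between 97.86 and 99.18 by the probe set with the higher mean and between 96.81 and 100 by the other. Chad, chondroadherin, a leucine-rich repeat protein to which chondrocytes attach, lay between 96.11 and 97.46.

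Near the ceiling the score resolved little. Of the 120 values of the 15 probe sets, 32 were exactly 100, and 9 probe sets reached 100 on at least 1 array. The range over 8 arrays was under 1 point for 8 of the 15. A coarse fixed step between scores was found for Matn1 and Snorc. Finer steps were not recorded, so other probe sets may also have a fixed step. Probe sets with few distinct values, Acan among them, were not searched. All 8 values of Matn1 were whole multiples of 0.775 points and all 8 of Snorc whole multiples of 0.617 points, with a tolerance of 0.006 points, and the 2 values of Acan were 0.50 points apart. A difference in mRNA between 2 samples that both lie at 100 cannot be seen on this scale.

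The comparison of SSCs with BCSPs asks whether these genes differ between the stem cell and its progenitor. None of the 15 probe sets was called between the populations by limma, as was the case for 0 of all 45037 probe sets (0%, adjusted p under 0.05). At an unadjusted p under 0.05, limma gave 0 of the 15 and 1081 of all probe sets (2.40%). Matn4 was the member with the largest difference of means, averaging 66.6 ± 18.7 over the SSC arrays and 58.6 ± 32.3 over the BCSP arrays (SD, n = 4 each). It was 8.03 points higher in SSCs (standard error 15.5, 95% confidence interval -26.9 to 43.0, limma adjusted p = 1), an interval that spans differences in both directions. Without BCSP4 the sign of the Matn4 difference turned, to -4.48 points.

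Matn1 differed by 1.36 points (95% confidence interval -16.6 to 19.4, limma adjusted p = 1) and Snorc by -1.08 points (SSC minus BCSP, -7.69 to 5.53, adjusted p = 1). The sign of the Matn1 difference turned when SSC1, SSC4, BCSP3 or BCSP4 was left out, to between -2.26 and -0.778 points. Matn1 was higher in BCSPs in 3 of 4 experiments and Matn4 in 2 of 4. For the 12 probe sets at or above 95 points, the differences ran from -0.435 points for the second Ucma probe set to 0.0250 for Comp, and no interval reached below -4.46 or above 3.59 points. The intervals of these 12 are wider than their own spread, since limma draws the spread of each probe set toward that of others at the same level. For Acan the standard error was 1.65 points, while the SD was 0.250 in SSCs and 0 in BCSPs.

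**Figure D2:**
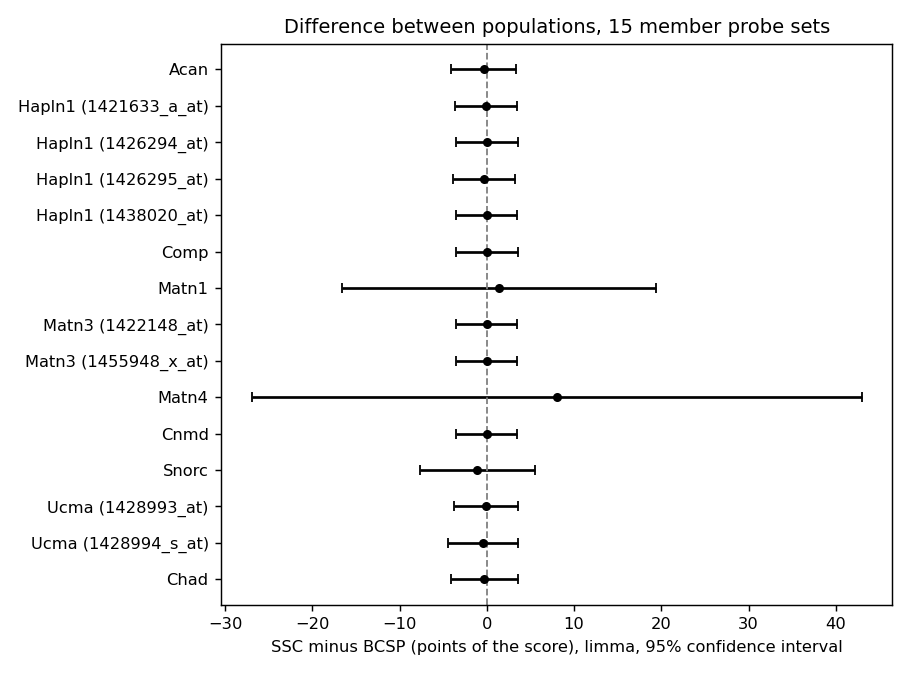
Difference between the population means (SSC minus BCSP, points of the score) for the 15 probe sets, with 95% confidence intervals from limma (4 against 4 arrays). Every interval includes 0, and those of Matn4 (-26.9 to 43.0) and Matn1 (-16.6 to 19.4) are the widest.

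Array by array, 0 of the 15 probe sets had populations that did not overlap, against 1.43% of all probe sets. BCSPs had the higher mean for 10 of the 15, against 53.0% of all probe sets, and SSCs for 3, and the median of the 15 differences was -0.0250 points (SSC minus BCSP), against -0.605 points over all probe sets. These directions depended on the scaling. After centring on array medians only Snorc of the 10 genes, each by its highest probe set, was higher in BCSPs. No member was higher in the same population in 4 of 4 experiments. Over all probe sets, 5.43% were higher in SSCs and 7.24% higher in BCSPs in every experiment. These shares cannot be set against the members, since a tie within an experiment rules 4 of 4 out. Only Matn1 and Matn4 had no such tie. The smallest p of an exact two-sided permutation test over 70 assignments was that of Acan, at 0.143, and 0.0286 is the smallest these assignments allow. With 3 values of 97.5 and 5 of 98.0, 0.143 is also the lowest p the Acan values can give, and this exact test does not use the pairing by experiment. Acan was higher in BCSPs in experiments 2, 3 and 4, each time by 0.50 points, and equal in experiment 1.

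The scores were also compared between the experiments. For 8 of the 15 probe sets the mean of the 2 arrays was lowest in experiment 3, against 36.5% of all probe sets. The experiment means of Matn4 were 84.1, 78.1, 41.5 and 46.9 points in experiments 1 to 4, those of Matn1 66.3, 60.9, 44.2 and 54.7, and those of Snorc 94.4, 94.1, 86.4 and 93.8. Matn1 and Matn4 were thus low in experiment 3 in both populations, and Matn4 differed within experiment 4 by 51.6 points. A limma F-test among the 4 experiments, chosen after the values were seen, called 0 of the 15, against 0.995% of all probe sets. At an unadjusted p under 0.05 it gave 1 of the 15, Snorc (limma adjusted p = 0.132), against 24.9% of all probe sets. The test had little room to call the 12 probe sets at or above 95 points. Their range over the 8 arrays was under 4 points, and limma draws their spread toward that of others at the same level. These counts therefore do not show that the members were steadier between experiments than other genes. Matn4 (adjusted p = 0.247) and Matn1 (adjusted p = 0.294) did not pass this limma test.

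A rough measure of RNA or amplification quality moved with the scores of Matn1 and Matn4. The actin control of the array has probe sets at either end of the transcript, and the one at the 3′ end exceeded that at the 5′ end by 59.6 points on SSC3, 64.9 on BCSP3 and 44.2 on BCSP4, against 23.1 to 36.6 on the other 5 arrays. The 3 arrays with the largest actin gap were therefore the 3 arrays with the lowest Matn1 and Matn4. Snorc was low on SSC3 and BCSP3 but at 95.06, its highest value, on BCSP4. For the Gapdh control the gap was 54.7, 49.1 and 71.9 points on these 3 arrays, 53.9 on SSC4 and 21.3 to 44.2 on the other 4. These gaps are differences between scores of separate probe sets, each in its own range, and not ratios of 3′ to 5′ signal. The part of RNA quality in the Matn1 and Matn4 scores was not tested.

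Probe sets of one gene did not always move together in experiment 3. Matn2, a matrilin of many tissues, has 2 probe sets. One scored 71.02, 67.24, 51.34 and 59.37 in SSCs and 71.82, 74.16, 50.03 and 47.89 in BCSPs, so its lowest 3 arrays were those of Matn1 and Matn4. The other scored 92.76, 82.80, 89.58 and 77.20 in SSCs and 88.83, 81.59, 90.37 and 76.86 in BCSPs, with experiment 3 near the top. The cartilage collagen Col9a1 has 2 probe sets as well. One scored 91.97 or more on 5 arrays and 80.12, 77.81 and 75.70 on SSC3, BCSP3 and BCSP4, while the other lay between 99.18 and 99.85, at the ceiling, where a lower level of mRNA need not show. Matn1, Matn4 and Snorc each have a single probe set, so no second measurement exists for them here.

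**Figure D3:**
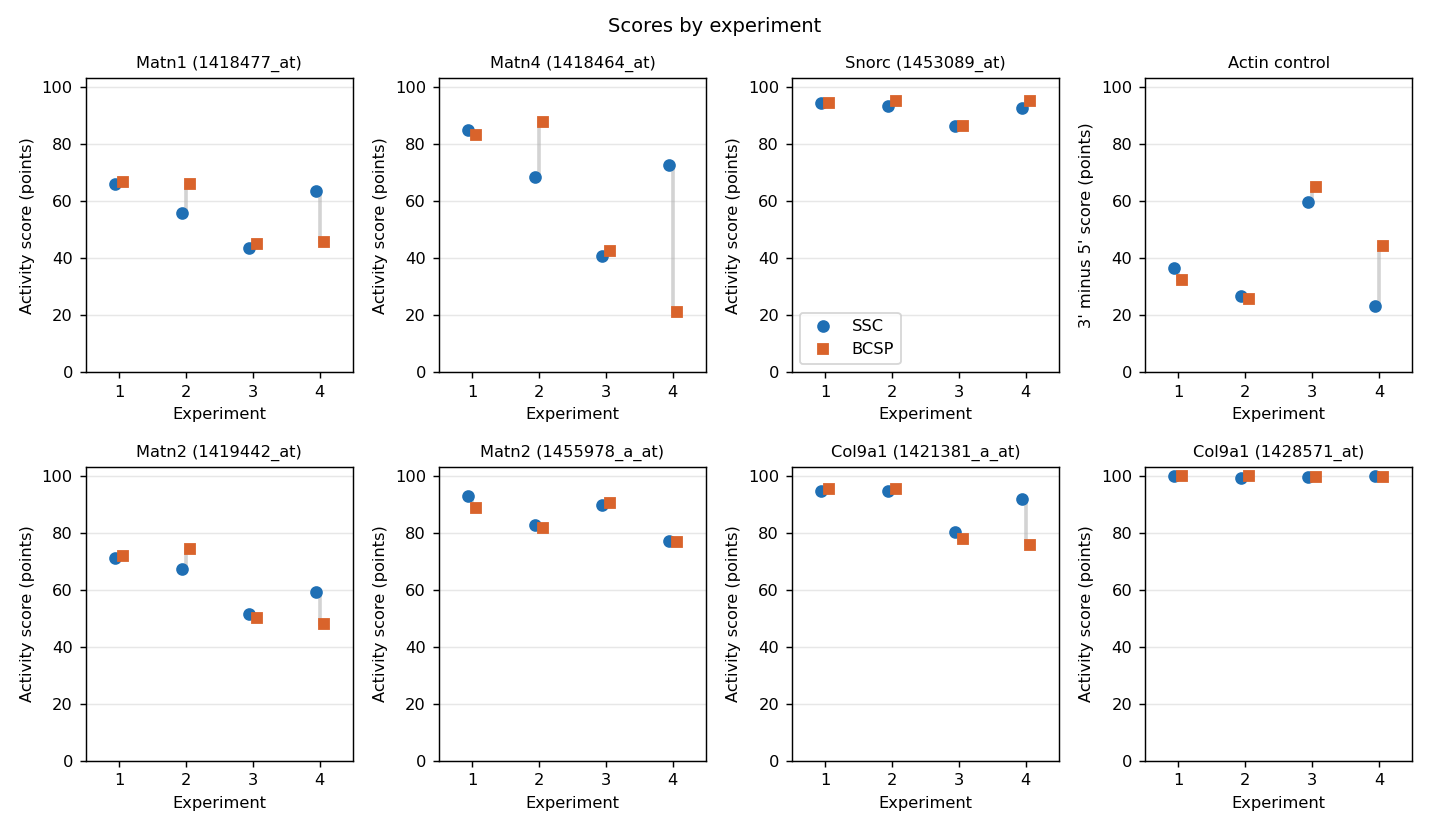
Activity score (points) by experiment of Matn1, Matn4, Snorc and both probe sets each of Matn2 and Col9a1, and the 3′ minus 5′ score of the actin control, with a circle for the SSC and a square for the BCSP array joined by a gray line. Matn1, Matn4, the first Matn2 probe set and the first Col9a1 probe set are lowest on the 3 arrays where the actin gap is 44.2 points or more.

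Relatives of the members were less uniform. Of 13 genes from the same families, 9 were above 0 on all 8 arrays and 3 on none, with a median of 40.9 points in SSCs and 47.6 in BCSPs. Over all named genes these medians were -18.7 and -17.3, and over the 10 members 98.1 and 98.4. The proteoglycans Ncan and Bcan and the link proteins Hapln2 and Hapln4 are known from the nervous system. Ncan lay between -73.6 and -31.8, Hapln2 between -62.9 and -7.43 and Hapln4 between -18.2 and -2.82, and Bcan was above 0 on 2 arrays, or on none by its other probe set. Vcan, the widely expressed relative of aggrecan, was above 0 on all 8 arrays at 29.0 to 54.2 points by its highest probe set. Of its 8 probe sets, 2 were above 0 on every array.

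The other relatives were also above 0 on all 8 arrays. In the thrombospondin family of Comp, Thbs3 lay between 98.88 and 99.76, Thbs2 between 73.8 and 91.1, Thbs1 between 51.3 and 76.9 and Thbs4 between 12.3 and 65.6. Thbs3 was the only one of the 13 relatives at or above 95 points on every array, and Chadl, the relative of Chad, followed at 93.87 to 98.77. Hapln3 lay between 29.3 and 89.2. Tnmd, tenomodulin, the tendon relative of Cnmd, scored 72.88, 34.45, 45.12 and 7.07 in SSCs and 51.03, 56.56, 39.59 and 24.68 in BCSPs. Limma called 0 of the 13 relatives between SSCs and BCSPs, and 0 at an unadjusted p under 0.05.

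**Figure D4:**
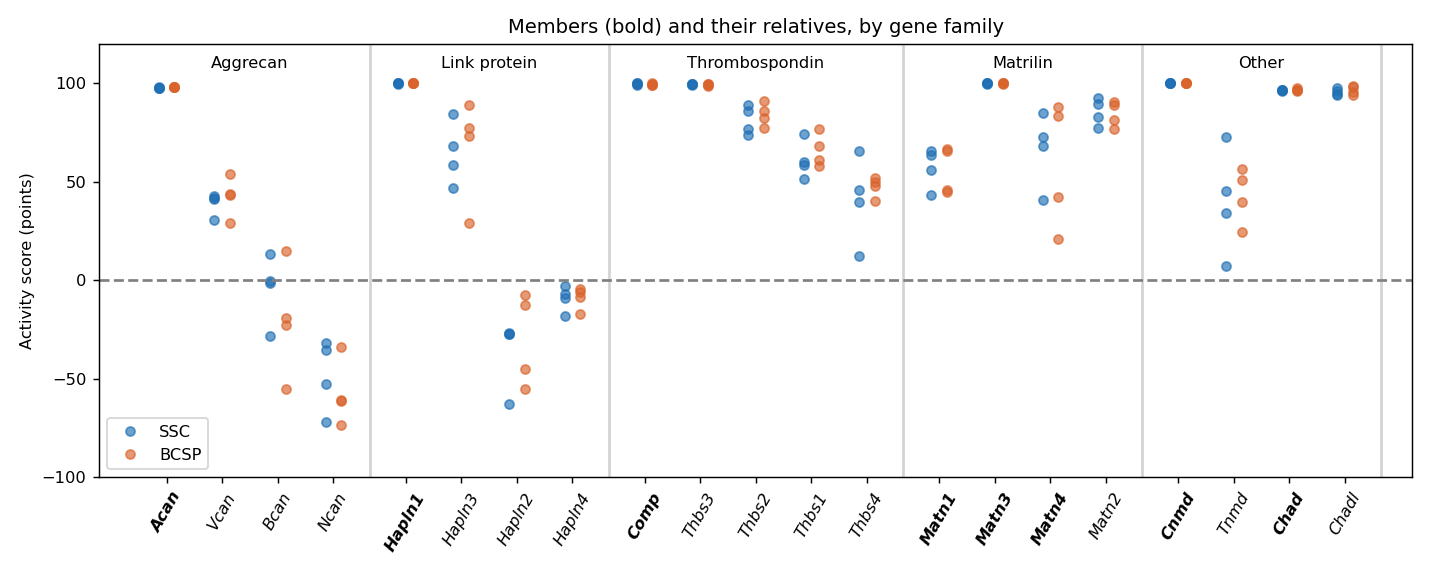
Activity score (points) of the members (bold) and their relatives by gene family, each gene by its highest probe set, with each point an array and the dashed line at the threshold of 0. The relatives known from the nervous system (Ncan, Hapln2, Hapln4) lie below 0 on all 8 arrays, and Bcan is above 0 on 2.

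Other cartilage genes were active beside the members. All 7 collagen genes of cartilage were above 0 on every array, and Col11a2 shared the low arrays of Matn1, at 72.1, 76.7 and 76.0 on SSC3, BCSP3 and BCSP4, and at 87.6 to 96.0 on the others. The 5 measured transcription factors (Sox9, Sox5, Sox6, Runx3 and Mef2c) were above 0 on all 8 arrays by their highest probe set. By single probe sets, 1 of 2 for Runx3 and 4 of 7 for Sox5 were above 0 on every array, and all of those for Sox9, Sox6 and Mef2c. Runx2 and Clec3a were not analysed here, because no probe set carries their symbol alone. Of 12 other secreted cartilage proteins, 9 were above 0 on all 8 arrays, Lect2 and Otos on none and Cilp2 on 2. Among the 9, Scrg1, Mia, Ecrg4, Fmod and Prelp were at 95 points or more by their highest probe set. By their lowest probe sets, Prelp lay between 61.27 and 75.45, Fmod between 90.09 and 97.35 and Ecrg4 between 91.40 and 97.10.

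Enzymes that cut the members were mixed. Of 8 genes, Adamts1, Adamts12, Mmp13 and Htra1 were above 0 on all 8 arrays, although a second Adamts12 probe set was above 0 on none. Of the aggrecanase genes, Adamts4 lay between -67.4 and 11.4, above 0 on 1 array, and Adamts5 between -6.77 and 26.4, above 0 on 6. By their other probe sets, Adamts4 was above 0 on no array, and Adamts5 on 5 arrays or on none. Adamts7, whose enzyme cuts Comp, lay between -80.7 and -22.6. Limma called 0 genes of the collagens, transcription factors, secreted proteins and enzymes between the populations, and 0 at an unadjusted p under 0.05.

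Markers of other cells gave the setting of these scores. All 4 chondrocyte markers and all 4 measured osteoblast markers were above 0 on all 8 arrays, and so were 3 of 5 genes of tendon and fibroblasts. Another probe set of the osteoblast marker Dmp1 was above 0 on no array, and another of the tendon marker Scx on 3. The osteoblast marker Bglap was not analysed, because no probe set carries its symbol alone. Of the hypertrophic chondrocyte markers, Col10a1 and Mmp13 were above 0 on all 8 arrays and Ihh on 7. In experiment 3, Col10a1 scored 61.6 in SSCs and 57.1 in BCSPs against 78.5 to 91.8 elsewhere, and Ihh scored -0.160 and 14.2 against 55.3 to 96.9. Mmp13 lay between 87.96 and 91.33 on all 8 arrays, with 89.61 and 89.32 in experiment 3. The limma F-test among experiments called Ihh (adjusted p = 0.0482) but not Col10a1 (adjusted p = 0.0510) or Mmp13 (adjusted p = 0.915). On BCSP4, where Matn4 was at its lowest, Col10a1 and Ihh stood at 85.8 and 78.5. The lowest experiment mean was in experiment 3 for 2 of 4 chondrocyte, 2 of 3 hypertrophic, 2 of 4 osteoblast and 1 of 5 tendon and fibroblast markers, beside 36.5% of all probe sets. The part of the makeup of the sorted cells in the scores of the members was not tested. The 4 endothelial and 4 skeletal muscle markers were above 0 on no array, and of 7 macrophage and blood markers only the hemoglobin gene Hba-a1 was above 0, on 5 arrays. Between the populations limma called no marker. At an unadjusted p under 0.05, which 2.40% of all probe sets reached, it gave Cd34, Emcn and Eng. Their differences (SSC minus BCSP) were -38.8, -32.6 and -58.4 points (limma adjusted p = 1 for each). The populations were sorted on CD105, the product of Eng, so the Eng difference is no independent result. Cd34 and Emcn were below 0 on all 8 arrays.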

How the data were processed

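Expression was measured on 8 Affymetrix mouse arrays, 4 of SSCs and 4 of BCSPs. The authors amplified the sorted cells' RNA in repeated rounds and scored each array in Gene Expression Commons relative to its Common Reference of public arrays, where StepMiner sets a threshold per probe set. The deposited unit is this activity score, bounded near -100 and 100. For the summarising of probes, the method is not given in the sources here. Repeated amplification favours the 3′ end of transcripts, which can lower probe sets that lie far from it.

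Names came from the annotation of the platform (34958 probe sets with 1 symbol, and 932 with several, which were not named). Without the 64 controls, 45037 probe sets were compared between SSCs and BCSPs by limma (3.58.1, under R 4.3.3), using lmFit and a trended eBayes without a block. P-values were adjusted by Benjamini-Hochberg and called under 0.05. An exact two-sided permutation test was run for single probe sets. The fits were run on simulated scores with large shifts in probe sets of middle score and with less noise than these arrays show. That run says nothing about small differences near the ceiling. No fold was computed from the bounded score. Precision is limited by the small number of arrays. The labels name no animals, while the text of the study gives different mice as the source of the calluses. The p-values measure the spread between these samples.

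The 10 members were all named. Genes of the comparison lists were named when above 0 on all 8 arrays or on none, and others were named after their values were seen. Members and lists were chosen with earlier results of these data known. The labels put 1 SSC and 1 BCSP array in each experiment. For the BCSP array of experiment 2 title and description disagree on its number, and the description was used. Deviations of same-numbered arrays from their population means correlated at 0.394, 0.164, 0.605 and 0.173 across probe sets. The highest correlation with an array of another number was 0.140, 0.140, 0.00813 and 0.0584. The numbers were taken as pairs, although these values hardly separate the pair of experiment 2 from others. Alternatives were quantile normalization, the experiment as a block, a filter on low scores and centring on array medians. Others were 1 probe set or the mean of all probe sets per gene, eBayes without trend and array weights. Also run were the methods' unpaired t-test, other activity thresholds and leaving out each array. This t-test assumed equal variances, without the methods' Welch correction or Mann-Whitney test. Leaving out both arrays of an experiment, the F-test among experiments and the level of 95 points were added after seeing the data. Promoter sequences are from RefSeq, GRCm38.p6.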

Additional observations from a re-analysis of the deposited data

Results flagged for a closer look

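The highest or lowest array of a population was set against the other 3 by Dixon's criterion, in 30 groups of member probe sets and 90 groups of comparison genes, where chance alone marks about 1 group in 20. It marked 8 groups of members. In 7 of them the other 3 arrays shared 1 value, so that any other value was marked, and in each of the 7 it lay less than 1 point away. These were Acan on the SSC array of experiment 1 (98.00 against 97.50), Hapln1 on the SSC array of experiment 2 by 2 probe sets (99.22 and 99.91 against 100), and Matn3 on the SSC array of experiment 2 and the BCSP array of experiment 4 (99.80 against 100 in both) and on the BCSP array of experiment 2 by the other probe set (100 against 99.91). The last was Cnmd on the BCSP array of experiment 2 (100 against 99.94). The eighth was Snorc on the BCSP array of experiment 3, at 86.42 against 94.44 to 95.06.

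Among the comparison genes, 7 groups were marked. Vcan scored 30.79 on the SSC array of experiment 2 against 41.14 to 42.85, Hapln2 -62.90 on that of experiment 3 against -27.27 to -26.82, and Thbs3 99.24 on the same array against 99.68 to 99.76. Col10a1 scored 57.08 on the BCSP array of experiment 3 against 82.19 to 85.84, and Htra1 97.47 there against 94.44 to 94.59. Sox6 scored 98.12 on the BCSP array of experiment 1 against 99.04 to 99.15, and Runx3 38.14 on that of experiment 2 against 71.57 to 76.81. Of the 8 marks on values that were not tied with the rest, Snorc, Hapln2, Thbs3, Col10a1 and Htra1 were on arrays of experiment 3.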

How the results depend on the processing

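No probe set was called between SSCs and BCSPs under any alternative run, the experiment as a block included (0 of 45037 with the replicate block, where 2268 had an unadjusted p under 0.05 against 1081 without it). The methods' t-test, run with equal variances assumed throughout, gave 1094 probe sets at an unadjusted p under 0.05. Acan was the only member among them (t-test unadjusted p = 0.0240, adjusted p = 1). Its SD was 0.250 in SSCs and 0 in BCSPs, so this p rests on an assumption its values do not meet. The Welch correction and Mann-Whitney test that the methods name for such cases were not run. Apart from Matn3, at 0 in the fit reported and between -0.0125 and 0.0477 points elsewhere in this group, the differences of the members kept their sign under the block, quantile normalization, the filter, the choices of probe set, the other test settings and array weights. Centring on array medians shifts all scores of an array by its own median. It turned 5 of the differences, to 0.0475 points for Acan, 0.400 for Hapln1, 0.408 for Cnmd, 0.295 for Ucma and 0.120 for Chad. The sign of the Comp and Matn1 differences turned without SSC1, SSC4, BCSP3, BCSP4 or experiment 4, that of Matn4 without BCSP4 or experiment 4, and those of Snorc and Ucma without SSC3. With array weights the Matn4 difference was 13.8 points. Over the fits that left out 1 array or 1 experiment the differences ran from -0.500 to -0.333 for Acan, -0.0300 to 0 for Hapln1, -0.173 to 0.223 for Comp, -4.14 to 5.94 for Matn1, -0.0667 to 0.0667 for Matn3, -6.50 to 17.7 for Matn4, -0.0200 to 0 for Cnmd, -3.19 to 0.668 for Snorc, -0.330 to 0.136 for Ucma and -0.467 to -0.0900 for Chad. With single arrays left out, 0 to 1 member probe sets had populations that did not overlap, the 1 being Acan without SSC1. The median of the members was 129.0 in SSCs and 128.6 in BCSPs after centring, and 98.1 and 98.4 with 1 probe set per gene. It stayed within 99.5 to 99.7 when any single array was left out. At 99 in place of 95 points 7 probe sets remained. All 15 probe sets were above 20 points and above the array median on every array. Scores near 100 hide differences between samples, and that limit holds for 12 of the 15 probe sets.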

Other observations

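Among named genes outside the lists, the 5 whose scores followed the mean of the 10 members most closely over the 8 arrays were Gnai2, Pdia6, Ppp1ca, Gna11 and Swi5, with Pearson correlations of 0.994, 0.991, 0.990, 0.988 and 0.985. The 8 arrays come in pairs from 4 experiments, 18193 genes were searched, and the mean of the members moves almost wholly with Matn4 and Matn1, so these are descriptions. Gnai2, a G protein subunit found in most cells, scored 73.73, 55.77, 10.09 and 55.98 in SSCs and 77.44, 75.20, 19.73 and 8.86 in BCSPs. Ppp1ca, a catalytic subunit of a widely expressed phosphatase, scored 14.83, -2.75, -78.31 and 0.710 in SSCs and 15.16, 24.62, -77.98 and -79.37 in BCSPs. In both genes the lowest 3 arrays were SSC3, BCSP3 and BCSP4, as for Matn4. Between member probe sets, Matn1 correlated with Matn4 at 0.941 and with Comp at 0.949 over the 8 arrays, although Comp moved by less than 1 point.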
